A study of Danio rerio with 8 samples.

Results

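Rod phototransduction genes encode the proteins with which rod photoreceptors turn absorbed light into an electrical signal. The set comprised gnat1, pde6a, pde6b, saga, sagb, cnga1, cngb1a, grk1a, guca1b and rom1b, chosen by symbol with earlier results of these data known. In the deposited table of 32434 genes, 11 rows belonged to 9 of these 10 symbols. Of these rows 9 carried the symbol itself, and pde6b and cnga1 had 2 rows each. The row named grk1 was taken for grk1a through a synonym. grk1b, listed here among cone genes, found no row, so the tables used do not settle which of them this row holds. The row named rom1 was taken for rom1b because rom1a has a row of its own, although the tables used do not state this. No row carried the symbol pde6a. Whether 1 of the 2 rows named pde6b holds pde6a could not be settled from the tables used, so values of these rows are given by their identifiers.

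The study compared whole zebrafish larvae at 5 days post fertilization, 4 samples labelled SepH mutant and 4 labelled WT, by sequencing polyadenylated RNA. seph, now named selenoh, encodes selenoprotein H, a selenium-containing nuclear protein which the series title links to redox balance and to the tumour suppressor p53. The labels give neither the mutant allele and its zygosity nor the strain, the number of larvae in a sample or the clutches they came from. No treatment is named for either group. The comparison asks which transcripts differ between larvae with and without the mutation.

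In a rod, light converts rhodopsin to an active form that switches on the G protein transducin. Transducin activates a phosphodiesterase that breaks down cyclic GMP, and the fall in cyclic GMP closes cation channels in the outer segment membrane. Rhodopsin kinase and arrestin then silence rhodopsin, and guanylate cyclase with its calcium-sensing activators restores cyclic GMP. Cones use a parallel set of proteins that are mostly products of separate genes. In zebrafish, rods and cones are both present in the larval retina, and the pineal organ holds photoreceptor cells too.

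The libraries held between 51246749 and 56409917 counts. selenoh had 0 to 20 counts in the mutant libraries and 737 to 1225 in wild type, so each library matched its label. Both replicate 3 libraries stood apart from the others of their group, and values without them are given where they matter. Levels below are CPM, counts scaled to library size with TMM factors, with SD over the 4 libraries of a group. They are not divided by transcript length, so levels of different genes are not compared.

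All 11 rows fell in the mutant, by 3.7-fold to 6.39-fold. Their mutant means were 15.5% to 27.0% of the wild type means, with a median of 19.2%. In each row the highest mutant library lay under the lowest wild type one. Called as lower were genes with an adjusted p under 0.05 in edgeR's quasi-likelihood test with Benjamini-Hochberg adjustment, which applied to 2287 of 27050 tested genes, or 8.45%, while 8.65% were higher in the mutant and included none of the 11. A mutant group wholly below the wild type group was found for 11.1% of all tested genes. The 11 rows had a median log2 fold change of -2.38, against 0.01 over all tested genes. All 11 decreases were at least 2-fold and 9 at least 4-fold, sizes that 3.02% and 0.972% of all tested genes reached with the same call. The set was chosen with earlier results of these data known, so these shares describe it and do not test it. In RNA from whole larvae, fewer rods and less RNA per rod cannot be told apart.

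**Figure D1:**
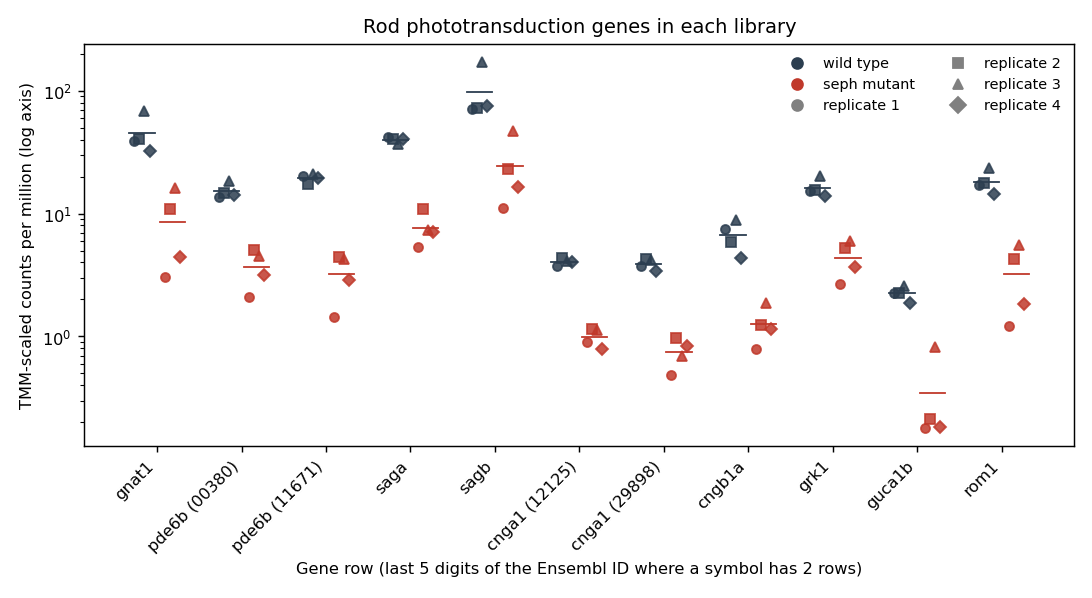
Level of each rod phototransduction gene row in each library, in TMM-scaled CPM on a log axis. Points are libraries, marker shapes are replicate numbers and lines are group means. Mutant points lie below all wild type points in each of the 11 rows, with the narrowest gap in sagb, where the lowest wild type library is at 71.2 and the highest mutant library at 47.2.

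gnat1 (ENSDARG00000044199) encodes the alpha subunit of rod transducin, which carries the signal from rhodopsin to the phosphodiesterase. Mutant replicates 1 to 4 had 168, 611, 902 and 244 counts. Wild type replicates 1 to 4 had 2058, 2122, 3793 and 1660 counts. The groups did not overlap, and the mutant libraries differed among themselves by 5.28-fold in CPM, the widest span of the 11 rows, against 2.12-fold in wild type. Mutant libraries averaged 8.60 ± 6.0 CPM and wild type libraries 45.2 ± 16.1 CPM (SD, n = 4 each). The log2 fold change was -2.39 ± 0.49 (SE, adjusted p = 0.0111, edgeR quasi-likelihood with Benjamini-Hochberg).

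The rod phosphodiesterase is the effector that hydrolyses cyclic GMP, and pde6b encodes 1 of its catalytic subunits. The row ENSDARG00000011671 had 79, 248, 239 and 157 counts in mutant replicates 1 to 4. In wild type replicates 1 to 4 it had 1071, 905, 1147 and 999 counts. Mutant libraries were low throughout, with replicate 1 the lowest, while wild type libraries lay within 1.20-fold of each other. Mutant libraries averaged 3.24 ± 1.39 CPM and wild type libraries 19.5 ± 1.54 CPM (SD, n = 4 each), a log2 fold change of -2.59 ± 0.30 (SE, adjusted p = 0.000902, edgeR quasi-likelihood with Benjamini-Hochberg). The symbol table gives the name pde6b to ENSDARG00000000380 as well, and either row may be pde6a, which encodes the other catalytic subunit. This row had 117, 280, 255 and 173 counts in the mutant libraries and 721, 769, 1010 and 722 in wild type, in replicate order, again without overlap. Its log2 fold change was -2.04 ± 0.25 (SE, adjusted p = 0.0011, edgeR quasi-likelihood with Benjamini-Hochberg). The log2 ratio of ENSDARG00000000380 to ENSDARG00000011671 was 0.24 ± 0.22 in the mutant and -0.36 ± 0.19 in wild type (SD, n = 4 each), higher in every mutant library. Its exact two-sided permutation p was 0.0286, the smallest that 4 against 4 can give, and 0.543 after adjustment over the 19 ratios examined. Over 19 ratios a single one at this floor cannot pass, so whether this ratio differs between the groups was not settled. The pair was added after the names were matched.

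The cyclic nucleotide-gated channel is the last step of the cascade. cnga1 encodes its principal subunit and cngb1a its modulatory subunit. The cnga1 row ENSDARG00000012125 had 50, 64, 64 and 43 counts in mutant replicates 1 to 4 and 196, 227, 228 and 205 in wild type replicates 1 to 4. It had the least spread of the 11 rows within the mutant, 1.45-fold. Mutant libraries averaged 0.992 ± 0.176 CPM and wild type libraries 4.05 ± 0.263 CPM (SD, n = 4 each), a log2 fold change of -2.03 ± 0.17 (SE, adjusted p = 0.000172, edgeR quasi-likelihood with Benjamini-Hochberg). The second cnga1 row, ENSDARG00000029898, had 27, 54, 39 and 46 counts in the mutant and 198, 222, 230 and 173 in wild type. The mutant libraries spanned 1.98-fold in CPM, and the groups did not overlap. Its log2 fold change was -2.38 ± 0.22 (SE, adjusted p = 0.000303, edgeR quasi-likelihood with Benjamini-Hochberg). The log2 ratio of the first cnga1 row to the second was 0.43 ± 0.44 in the mutant and 0.06 ± 0.12 in wild type (SD, n = 4 each, exact permutation p = 0.257, adjusted 0.543).

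cngb1a (ENSDARG00000068242) had 44, 69, 106 and 63 counts in mutant replicates 1 to 4. In wild type replicates 1 to 4 it had 395, 309, 489 and 220 counts. Wild type replicate 4 was the lowest of its group and still 2.29-fold above the highest mutant library in CPM. Mutant libraries averaged 1.26 ± 0.451 CPM and wild type libraries 6.64 ± 1.97 CPM (SD, n = 4 each), a log2 fold change of -2.39 ± 0.30 (SE, adjusted p = 0.00121, edgeR quasi-likelihood with Benjamini-Hochberg). Set against cngb1a within each library, the second cnga1 row had a log2 ratio of -0.73 ± 0.49 in the mutant and -0.73 ± 0.37 in wild type (SD, n = 4 each, exact permutation p = 0.971). For the first cnga1 row the ratio was -0.30 ± 0.41 and -0.66 ± 0.47 (exact permutation p = 0.314). Both ratios overlapped between the groups.

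Arrestins bind phosphorylated rhodopsin and end its signalling, and zebrafish have the paralogs saga and sagb. saga (ENSDARG00000012610) had 297, 606, 418 and 387 counts in mutant replicates 1 to 4 and 2233, 2111, 2010 and 2045 in wild type replicates 1 to 4. The wild type libraries lay within 1.16-fold of each other, the least spread of the 11 rows. A mutant mean of 7.67 ± 2.29 CPM against 39.8 ± 2.43 CPM in wild type (SD, n = 4 each) gave a log2 fold change of -2.37 ± 0.19 (SE). saga had the smallest p of the 11 rows, rank 89 among all tested genes (adjusted p = 0.000137, edgeR quasi-likelihood with Benjamini-Hochberg).

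sagb (ENSDARG00000038378) had 611, 1284, 2664 and 898 counts in mutant replicates 1 to 4. In wild type replicates 1 to 4 it had 3758, 3748, 9382 and 3823 counts. Replicate 3 was the highest library in both groups, 2.81-fold above the mean of the other mutant libraries and 2.34-fold above that of the other wild type libraries in CPM. Mutant libraries averaged 24.4 ± 16 CPM and wild type libraries 97.0 ± 48.8 CPM (SD, n = 4 each), a log2 fold change of -1.99 ± 0.47 (SE, adjusted p = 0.0194, edgeR quasi-likelihood with Benjamini-Hochberg). The call was lost without mutant replicate 2 (adjusted p = 0.0588 in edgeR's quasi-likelihood test) or mutant replicate 4 (0.0542, the range over its alternatives being 4.49e-05 to 0.0588). Without both replicate 3 libraries the log2 fold change was -2.11 and the edgeR adjusted p was 0.00075.

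The arrestin paralogs thus behaved differently in replicate 3. saga was at 0.956 of the mean of the other mutant libraries and 0.892 of that of the other wild type libraries there. The log2 ratio of saga to sagb was -2.67 in mutant replicate 3 against -1.21 to -1.04 in the other mutant libraries. In wild type it was -2.22 in replicate 3 against -0.90 to -0.75. Between genotypes this ratio was -1.50 ± 0.78 in the mutant and -1.18 ± 0.70 in wild type (SD, n = 4 each), with overlapping values (exact permutation p = 0.457, adjusted 0.71).

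Rhodopsin kinase phosphorylates active rhodopsin ahead of arrestin binding. Its row grk1 (ENSDARG00000058803) had 147, 294, 337 and 199 counts in mutant replicates 1 to 4 and 810, 810, 1108 and 713 in wild type replicates 1 to 4. Its decrease, with a log2 fold change of -1.89 ± 0.25, was the smallest of the 11 (SE, adjusted p = 0.0014, edgeR quasi-likelihood with Benjamini-Hochberg). The mutant level was 4.38 ± 1.51 CPM against 16.2 ± 2.67 CPM in wild type (SD, n = 4 each). Even so the lowest wild type library was 2.35-fold above the highest mutant library.

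guca1b encodes a calcium-sensing activator of guanylate cyclase, which helps to restore cyclic GMP after light. The row ENSDARG00000013393 had few counts, with 10, 12, 46 and 10 in mutant replicates 1 to 4 and 120, 118, 142 and 95 in wild type replicates 1 to 4. Mutant replicate 3, at 0.815 CPM, stood far above the other mutant libraries, at 0.181 to 0.215 CPM, and below every wild type library. The group levels were 0.348 ± 0.312 CPM and 2.24 ± 0.293 CPM (SD, n = 4 each). guca1b had the largest decrease of the 11, a log2 fold change of -2.68 ± 0.48 (SE, adjusted p = 0.006, edgeR quasi-likelihood with Benjamini-Hochberg). Its size rested in part on mutant replicate 3, since it was -3.52 without that library and -3.45 without both replicate 3 libraries (edgeR adjusted p = 0.000123 and 0.000184). The adjusted p of edgeR, DESeq2 and limma-voom ranged from 4.61e-07 to 0.0211 over its alternatives.

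rom1b encodes a tetraspanin of the disc rim, a structural partner of peripherin in the outer segment rather than a step of the cascade. The row rom1 (ENSDARG00000026926) had 67, 240, 311 and 100 counts in mutant replicates 1 to 4. In wild type replicates 1 to 4 it had 896, 923, 1286 and 734 counts. Mutant replicates 1 and 4 were low and replicates 2 and 3 higher, a span of 4.55-fold in CPM, and the groups did not overlap. Mutant libraries averaged 3.21 ± 2.03 CPM and wild type libraries 18.1 ± 3.77 CPM (SD, n = 4 each), a log2 fold change of -2.49 ± 0.43 (SE, adjusted p = 0.00499, edgeR quasi-likelihood with Benjamini-Hochberg).

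From largest to smallest decrease the order was guca1b, pde6b (ENSDARG00000011671), rom1, gnat1, cngb1a, cnga1 (ENSDARG00000029898), saga, pde6b (ENSDARG00000000380), cnga1 (ENSDARG00000012125), sagb and grk1. The log2 fold changes ran from -2.68 to -1.89, with standard errors of 0.17 to 0.49. Neighbours in this order differed by less than their standard errors, except for saga and the pde6b row that follows it, at -2.37 ± 0.19 and -2.04 ± 0.25 (SE), a difference that was not tested. In all 16 alternative fits each of the 11 rows stayed lower in the mutant, and sagb was the only row to lose its call. A fit scaled by library size alone gave log2 fold changes of -2.60 for guca1b and -1.82 for grk1, again the ends of the range.

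The rows also shared a pattern across libraries. Mutant replicate 1 was the lowest mutant library in 10 of the 11 rows, with a median deviation of -0.65 from the group mean on the log2 CPM scale. Mutant replicate 3 was the highest in 6 rows and mutant replicate 2 in the other 5, with median deviations of 0.51 and 0.40. In wild type, replicate 3 was the highest in 8 rows (median deviation 0.28) and replicate 4 the lowest in 6 (median deviation -0.20). The span from lowest to highest library was wider in the mutant than in wild type for all 11 rows, at 1.45-fold to 5.28-fold against 1.16-fold to 2.39-fold. Mutant counts were the lower ones in each row, and the part of counting error in these spans was not tested. The widest mutant span, in gnat1, came with 168 to 902 counts. The narrowest, in the cnga1 row ENSDARG00000012125, came with 43 to 64 counts. The share of all tested genes with a wider mutant span was not computed, and the 11 rows are not independent observations. Over the 8 libraries, the deviations of 2 rows from their group means had a median Pearson r of 0.75 among the 55 pairs of rows (range 0.0232 to 0.99). These values share libraries, scaling factors and depth and are given as a description. The pattern was not particular to the rod rows. Of the lists given below, the cone list was also lowest in mutant replicate 1 and highest in mutant replicate 3, at summed levels of 83.5 and 596 CPM. So were the sums of further rod genes (116 and 329 CPM), shared regulators (71.0 and 155 CPM) and photoreceptor transcription factors (112 and 179 CPM). The sums of lens rows (405 and 1160 CPM) and inner retina rows (321 and 421 CPM) had the same lowest and highest mutant library. A few rows can lead such a sum. The cone arrestin row arr3 made up 296 of the 596 CPM in mutant replicate 3. The order was not counted row by row in these lists. Pineal and pigment rows were instead lowest in mutant replicate 3 (22.1 and 614 CPM). Müller glia rows were highest in mutant replicate 3 (530 CPM) and almost level in mutant replicates 1 and 4 (439 and 436 CPM).

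**Figure D2:**
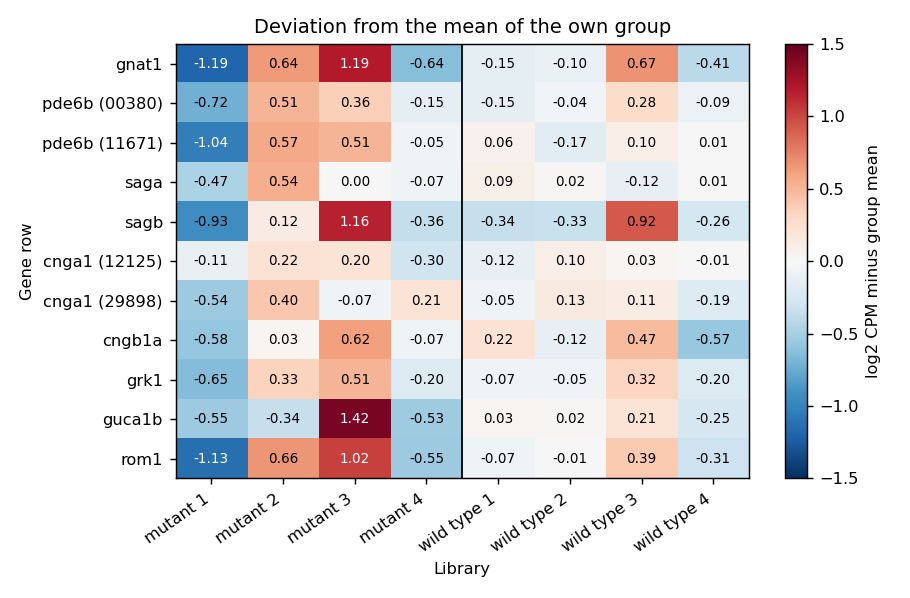
Deviation of each gene row in each library from the mean of its own group, in log2 CPM. Blue is below and red above the group mean, and the black line separates mutant from wild type libraries. Mutant replicate 1 lies below its group mean in each row, and replicate 3 of both groups is highest for gnat1, sagb, cngb1a, grk1, guca1b and rom1.

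The replicate 3 libraries did not raise all rows alike. In wild type replicate 3, sagb was 2.34-fold, gnat1 1.84-fold and grk1 1.35-fold above the mean of the other wild type libraries, while saga was at 0.892 and the cnga1 row ENSDARG00000012125 at 1.03. In mutant replicate 3, guca1b was 4.22-fold, sagb 2.81-fold, gnat1 2.61-fold and rom1 2.26-fold above the other mutant libraries. There saga was at 0.956 and the cnga1 row ENSDARG00000029898 at 0.903. Without both replicate 3 libraries the log2 fold changes of the 11 rows ran from -3.45 for guca1b to -1.95 for grk1.

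Other rod genes were measured beside them. For this list and those that follow, the shares of all tested genes called were 8.45% lower and 8.65% higher. In a list of further rod genes 4 of 6 rows fell, and the list median was -2.04 on the log2 scale. The main rhodopsin row rho (ENSDARG00000002193), the rod light receptor, was at 40.0, 161, 244 and 71.4 CPM in mutant replicates 1 to 4. In wild type replicates 1 to 4 it was at 643, 678, 980 and 550 CPM. It followed the order of the mutant libraries seen for gnat1 and fell by 2.47 ± 0.50 on the log2 scale (SE, adjusted p = 0.0107, edgeR quasi-likelihood with Benjamini-Hochberg). The disc rim gene rom1a fell by 2.83 ± 0.42 and the channel gene cngb1b by 1.61 ± 0.26 (SE). gnb1a, a G protein beta subunit used by many tissues, had a log2 fold change of 0.00 ± 0.10, and the exchanger gene slc24a1 had one of -0.29 ± 0.17, and neither was called.

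Of 17 rows for regulators and outer segment proteins that rods and cones share, 15 fell, and the list median was -1.92 on the log2 scale. They included both rows of pdc, the transducin-binding protein phosducin, at -2.54 ± 0.26 (ENSDARG00000011886) and -2.58 ± 0.33 (ENSDARG00000017634, SE each). gnb5, which acts with the regulator of G protein signalling that switches transducin off, fell by 1.69 ± 0.22, and the retinal guanylate cyclase gene gucy2f fell by 1.77 ± 0.23. The log2 ratio of rom1 to prph2, the peripherin gene, was -2.05 ± 0.56 in the mutant and -2.27 ± 0.33 in wild type for the prph2 row ENSDARG00000038018 (SD, n = 4 each, exact permutation p = 0.543). For the row ENSDARG00000014840 it was -1.99 ± 0.39 and -2.41 ± 0.16 (exact permutation p = 0.0857). Both ratios overlapped between the groups.

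Cone phototransduction genes fell as well. Of 15 cone rows 10 fell, the list median being -1.86 on the log2 scale, and the other 5 were not called, among them the cone arrestin gene arr3 (-1.86 ± 0.86, SE). The cone transducin gene gnat2 fell by 2.64 ± 0.44 on the log2 scale, and the cone rhodopsin kinase row grk7 (ENSDARG00000020602) fell by 2.65 ± 0.51. Of the 15 cone rows, 7 to 12 fell with 1 library left out, 13 fell in DESeq2, and 14 fell without both replicate 3 libraries or with replicate number as a block. The share of all tested genes called lower moved as well, from 8.45% to 12.2% in DESeq2 and 13.4% with the block. Without both replicate 3 libraries 3956 of 27150 tested genes were lower, and with 1 library left out 1235 to 3374 were. arr3 was called without mutant replicate 3 (log2 fold change -3.40, adjusted p = 0.00809, edgeR quasi-likelihood with Benjamini-Hochberg, 0.00391 to 0.33 over its alternatives).

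**Figure D3:**
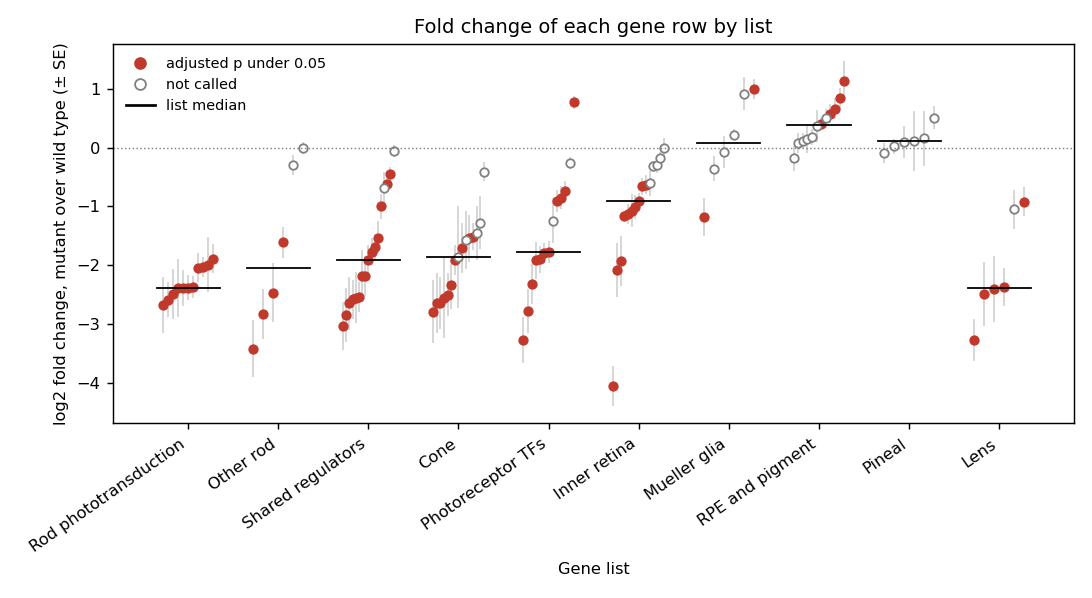
log2 fold change of mutant over wild type for each tested gene row, by gene list. Bars are standard errors, filled points have an edgeR adjusted p under 0.05, and black lines are list medians. The 11 rod phototransduction rows lie between -2.68 and -1.89. Further rod rows spread from -3.42 to 0.00 and cone rows from -2.79 to -0.41, while pineal rows lie around 0. The lists differ in make-up, so their spreads are not compared.

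To compare rod genes with their cone counterparts independently of scaling between libraries, log2 count ratios were taken within each library. Of 12 such rod to cone ratios 6 were lower and 6 higher in the mutant, with differences of -1.21 to 1.04. Several of them share a row. Those of the pde6b rows to pde6h, with differences of -0.61 and -1.21, are among the 12. pde6h encodes an inhibitory subunit and is no direct counterpart of pde6b, while the cone catalytic gene pde6c found no row. Mutant and wild type values overlapped in each of the 12, and the smallest unadjusted exact two-sided permutation p among them was 0.0571. With 4 against 4 libraries, at least 11 of the 19 ratios examined would have to reach the smallest possible p of 0.0286 before any could pass the adjustment, so adjusted values here do not show that rod and cone genes changed alike. The ratio of gnat1 to gnat2 was -2.57, -3.12, -2.44 and -4.00 in mutant replicates 1 to 4 and -3.50, -3.40, -2.21 and -3.96 in wild type replicates 1 to 4. These values overlapped, with means of -3.03 ± 0.71 and -3.27 ± 0.75 (SD, n = 4 each, exact permutation p = 0.657). The ratio of grk1 to grk7 (ENSDARG00000020602) had the smallest p of the 12, at -1.90 ± 0.82 in the mutant and -2.94 ± 0.45 in wild type (exact permutation p = 0.0571, adjusted 0.543). For guca1b over its paralog guca1c it was -4.23 ± 0.93 and -4.21 ± 0.73 (exact permutation p = 0.971). Whether rod and cone genes changed unequally was therefore not settled by these ratios.

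**Figure D4:**
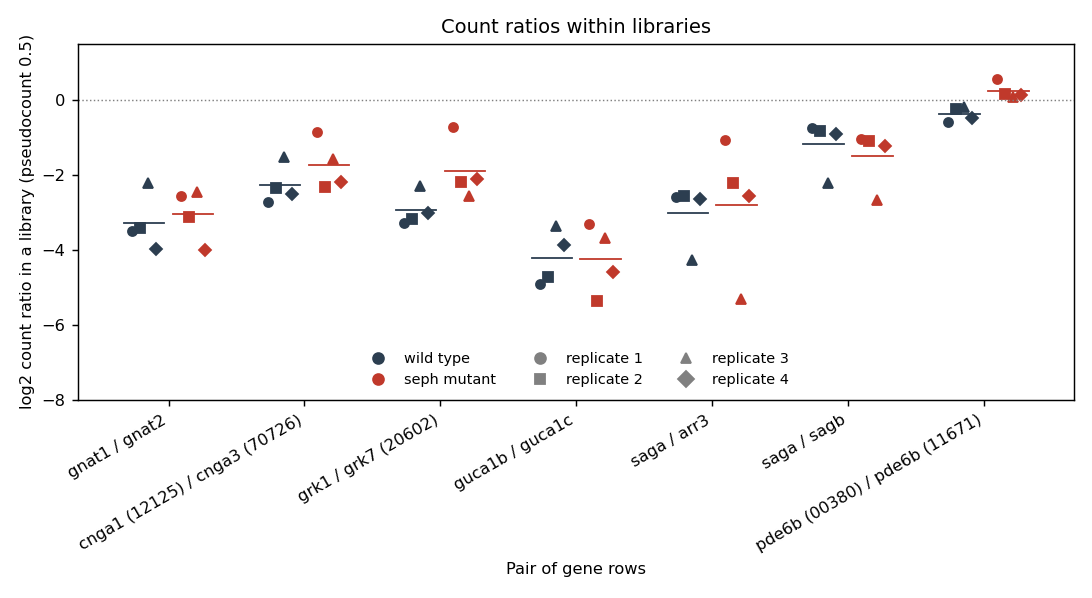
log2 count ratio of 2 gene rows within each library, with a pseudocount of 0.5. Points are libraries, marker shapes are replicate numbers and lines are group means. Mutant and wild type points overlap in each pair shown except the 2 pde6b rows, and the triangles show replicate 3 apart from the rest for saga over sagb in both groups.

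Genes of photoreceptor identity and of neighbouring cell types were read from lists of genes used as their markers. Several of these genes, such as gad1 and gad2, are also expressed outside the eye. In whole larvae their levels therefore do not measure retinal cells alone. Of 13 rows for photoreceptor transcription factors 10 fell and 1 rose. The row that rose was prdm1, with a log2 fold change of 0.77 ± 0.11 (SE), while nrl found no row. The listed factor otx5 found no row either, so whether either row named crx holds otx5 was not settled. Both of these rows, named for the homeodomain factor that drives many photoreceptor genes, fell (-2.32 ± 0.34 for ENSDARG00000011989 and -1.90 ± 0.23 for ENSDARG00000043483, SE each). So did nr2e3, a nuclear receptor of the rod programme (-2.78 ± 0.38). In wild type replicate 3, where gnat1 was highest, nr2e3 was lowest, at 5.30 CPM against 8.84 to 14.5 CPM in the other wild type libraries. Of 15 inner retina rows 10 fell, with a smaller median log2 fold change of -0.90. They included prox1 (-1.16 ± 0.09, SE) and, with the largest decrease, atoh7 of the retinal ganglion cell lineage (-4.06 ± 0.34, SE). atoh7 had few counts, with 4, 6, 11 and 7 in mutant replicates 1 to 4 and 117, 76, 120 and 137 in wild type replicates 1 to 4.

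Other eye and pineal lists differed from each other in direction. Of 6 pineal rows edgeR called none, with a median log2 fold change of 0.11, while 1 had an unadjusted p under 0.05, and DESeq2 and limma-voom also called none. Their summed level was 22.1 to 27.4 CPM in the mutant and 20.7 to 23.0 CPM in wild type. Over all tested genes 8.45% were called lower and 8.65% higher, so no call among 6 rows says little. The pineal rows parapinopsinb and parietopsin had low mutant means of 0.27 and 0.502 CPM, and exorh, asmt and parapinopsina found no row. The pigment epithelium and pigment cell list had 5 of 12 rows higher (median log2 fold change 0.39) and a summed level of 614 to 782 CPM in the mutant against 444 to 529 CPM in wild type. Leaving out replicate 1 or replicate 2 of either group brought the 5 down to 1, and leaving out mutant replicate 4 brought it to 2. Higher calls over all tested genes also dropped in these fits, from 2339 to between 1262 and 1801. Of 6 Müller glia rows 1 fell and 1 rose, and the fall was lost when any single wild type library was left out, as it was for mutant replicates 2 and 4. The rise became 2 rows without wild type replicate 3. Of 6 lens rows 5 fell (median log2 fold change -2.39), 3 without mutant replicate 2 or wild type replicate 2. The summed level of the inner retina rows was 321 to 421 CPM in the mutant and 481 to 542 CPM in wild type. Much of it came from the uncalled rows gad1 (ENSDARG00000027419) and gad2, with means of 145 and 141 CPM in the mutant and 180 and 160 CPM in wild type. The summed level of the 11 rod rows was 29.2 to 95.4 CPM in the mutant and 223 to 378 CPM in wild type. The part of these other cell types in the rod result was not tested.

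The genes whose log2 CPM most resembled the mean standardised profile of the 11 rows over the 8 libraries were sought among 17117 other genes. These were the tested genes with a symbol and a mean CPM of at least 1. The closest were cacna1fa, which encodes a calcium channel subunit of photoreceptor synapses (Pearson r = 0.997), pcare2 (0.9969), vax1 (0.9966), zgc:110045 (0.9965) and ntng2 (0.9964). Their decreases differed in size, among them 0.86 ± 0.14 for vax1 and 1.97 ± 0.24 for cacna1fa on the log2 scale (SE). Likeness was not limited to genes of the lists above, since sycn, in none of them, had r = 0.9906, the same as rom1a. With 2 groups this likeness contains the difference between genotypes and is given as a description.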

How the data were processed

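The authors deposited whole-number read counts per Ensembl gene, 1 column per sample and without normalization. STAR 2.3.0e and HTSeq 0.6.0 are named in the submitters' processing notes. Sources used here do not give the build, annotation or strand setting, so reads of overlapping genes and close paralogs may be mixed. None of the 11 rows shared all 8 counts with another row.

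Symbols came from a table pairing them with 20769 of the 32434 IDs. Of 122 list entries, 59 matched by symbol, 17 by a RefSeq synonym (GRCz12tu gene table) and 10 once a closing a or b was dropped. The remaining 36 found no row. Matching was by name only, and several rows may carry 1 symbol. The members and lists were chosen with earlier results of these data known.

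Genes passing filterByExpr (minimum count 10) numbered 27050. After TMM scaling, edgeR 4.0.16 (R 4.3.3) fitted genotype alone, and its quasi-likelihood p-values were Benjamini-Hochberg adjusted over all tested genes. Standard errors are the log2 fold change divided by the root of its F statistic. Log2 CPM used a prior count of 2. Within-library log2 ratios used a pseudocount of 0.5 and an exact two-sided permutation test over 70 arrangements. Of the planned pairs 6 had a partner without a row and were left out, and pairs with arr3 and pde6h and those between rows of 1 symbol were added after the names were matched. Promoter motifs were planned and not run, since sequences were not used here.

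Genes to be named were all members, ratio partners, selenoh, rho, nrl, nr2e3 and crx, of which nrl found no row. Added to them were up to 4 called genes per list with the smallest p and the 5 most similar profiles. The text gives values for only a part of these genes. gnb1a, slc24a1 and the other uncalled genes of these lists, as well as the called gene prdm1, were chosen after their values were seen.

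Alternatives were scaling by DESeq2 size factors or by library size only, a Wald test in DESeq2 1.42.0, limma-voom (limma 3.58.1), other filters, a replicate block and libraries left out. The fits were also run on simulated counts, drawn independently for each library and without the deviation of the replicate 3 libraries. Those runs therefore do not bear on calls that shift with replicate 3, and their outcome is not given here. No label says whether the 4 samples of a group are separate clutches. The p-values therefore reflect only the spread among these samples, possibly a technical one. The closest pair, wild type replicates 1 and 2, had a mean squared difference 8.46 times that of counting noise (31.7 to 159 for other pairs) and was kept as separate samples. A count of 0 allows up to 3 counts, or 0.0532 to 0.0585 CPM, counting error only.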

Additional observations from a re-analysis of the deposited data

Results flagged for a closer look

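A library far from the others of its group was looked for in 154 groups of 4 values, where chance flags about 1 in 20, and 13 were found. Of these, 11 were in replicate 3 libraries. Among the rod genes, sagb was at 170 CPM in wild type replicate 3 against 71.2 to 74.9 CPM in the others, and guca1b was at 0.815 CPM in mutant replicate 3 against 0.181 to 0.215 CPM. The log2 ratio of saga to sagb was -2.67 in the mutant and -2.22 in the wild type library of replicate 3, below the other libraries of both groups. The ratio of saga to arr3 was -4.27 in wild type replicate 3 against -2.65 to -2.57, and that of grk1 to grk7 (ENSDARG00000055534) was 2.52 against 1.24 to 1.35.

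The cone arrestin row arr3 was at 296 CPM in mutant replicate 3 against 11.2 to 50.4 CPM and at 706 CPM in wild type replicate 3 against 241 to 254 CPM. grk7 (ENSDARG00000055534) was at 3.5 CPM in wild type replicate 3 against 5.90 to 6.25 CPM, and pdc (ENSDARG00000011886) at 7.76 CPM against 8.60 to 8.77 CPM. The lens gene mip (ENSDARG00000013963) was at 64.6 CPM in mutant replicate 3 against 9.70 to 15.2 CPM. The vitamin A receptor gene stra6 was at 28.8 CPM in mutant replicate 4 against 39.3 to 40.5 CPM. selenoh was at 0.358 CPM in mutant replicate 2 against 0.00 to 0.0181 CPM.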

How the results depend on the processing

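The count of rod rows that fell stayed at 11 in 14 of 16 alternative fits and was 10 in the others, and it was 8 of 8 when the rows grk1, rom1 and ENSDARG00000000380 were left out, a choice made after seeing the data. Over the counts of called rows per list and of called ratios, 302 of 325 values stayed within 1.5 times the main count. Many of these were counts of 0 that stayed at 0, and the cone counts of 7 to 14 against 10 are among them as well. No named gene reversed, and 42 of 927 values for named genes crossed the threshold, in 10 genes. With 1 library left out, the higher pineal rows were 0 to 1, the lower Müller glia rows 0 to 1 and the higher ones 1 to 2, the higher pigment epithelium rows 1 to 5 and the lower lens rows 3 to 6. Without both replicate 3 libraries 1 pineal row and 3 Müller glia rows were higher. Higher Müller glia rows numbered 2 with library size only, limma-voom or a mean CPM of at least 1, and 3 with DESeq2. Same-numbered libraries had correlations of 0.095, 0.066, 0.46 and 0.237 between their deviations, and 3 of the 4 correlated best with their own number. Not every correlation was over 0.1 and the labels name no pairing, so the pairing is not established, although the replicate 3 libraries deviated alike. With the replicate block 11 rod rows and 14 cone rows fell, arr3 was called (log2 fold change -2.60, edgeR adjusted p = 0.0113), 1 pineal row and 2 Müller glia rows were higher, and 3623 genes were lower and 3783 higher, against 2287 and 2339. Leaving out 1 library gave 1235 to 3374 lower and 1262 to 3667 higher genes, and leaving out both replicate 3 libraries 3956 and 4200. Library size only gave 1647 lower and 2713 higher. The cause of these shifts was not tested.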
